A study of Mus musculus with 12 samples.

Results

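The data are the difference between 2 responses to CP775146, an agonist of the nuclear receptor PPAR-alpha, in primary mouse hepatocytes of 2 genotypes. For each gene the log2 response of the knock-in AEG-1-L24K/L25H (treated minus untreated) was set against the log2 response of the wild type, AEG-1-WT. The members are the libraries of all 4 groups, 12 of the 12 in the series, and every expressed gene was used. A positive difference means a more positive response in the knock-in, and a negative difference a less positive one. The groups were untreated wild type, wild type given 2.5 µM CP775146 for 24 h, untreated knock-in, and knock-in given the same dose for the same time, with 3 libraries each. The knock-in was made by CRISPR/Cas9 on a C57BL/6 background, and both genotypes came from matings between heterozygotes and ate regular chow. The hepatocytes were used right after isolation, and in the treated groups the 24 h with the agonist followed before RNA was taken. Ages are not given in the sources used here. The untreated groups carry no named vehicle. Whether the untreated cells also spent these 24 h in culture is not stated here. If they did not, the agonist and the time in culture cannot be told apart in either response. Whether a group's 3 libraries stand for different animals or cultures is not in the labels, so p-values here measure the spread between libraries, which may be technical. Genotype and the animals or cell preparations behind each genotype cannot be told apart, and in bulk RNA fewer cells of a type and less RNA per cell cannot be told apart either.

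PPAR-alpha is a ligand-activated transcription factor that pairs with the retinoid X receptor (RXR) and switches on liver genes for the uptake of fatty acids, their carriage by carnitine, their oxidation in mitochondria, peroxisomes and microsomes, and the making of ketone bodies. AEG-1, the protein encoded by Mtdh, carries near its start an LXXLL motif, the kind of leucine motif through which coregulators touch nuclear receptors, and AEG-1 is known to bind RXR and to hold back the activity of RXR heterodimers. The knock-in changes leucines of that region. The interaction asks whether the response to the agonist depends on the genotype.

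Total counts were 26956032 to 34885451 per library, so that 3 counts correspond to 0.086 to 0.111 CPM (counts scaled by library size), and 15664 of 46983 genes passed the filter on low counts. The spread between the libraries of a group was larger in wild type, with a coefficient of biological variation of 5.1% untreated and 5.33% treated, than in the knock-in with 2.6% and 2.63%. Hepatocyte markers gave a summed 82817 to 133928 CPM in every library. The 14 neutrophil and lymphocyte markers summed to 0.225 to 0.568 CPM, and 13 of them had a mean under 0.1 CPM. Of these Cd3d, Ms4a1, Gzmb and Retnlg were at 0 and the others had some counts. Mtdh, the changed gene, was at 174, 157 and 166 CPM in untreated wild type, 177, 186 and 181 CPM in treated wild type, 175, 171 and 172 CPM in the untreated knock-in and 191, 190.0 and 197 CPM in the treated knock-in. Its response was 1.09-fold in wild type and 1.11-fold in the knock-in and its difference of responses was not called (0.029 ± 0.055, edgeR adjusted p = 0.83). The knock-in changes codons of Mtdh, so its transcript level does not check the genotype labels. One library stands apart: treated wild-type replicate 1 carried more interferon-induced RNA than the other 2 treated wild-type libraries. The 61 tested interferon-induced genes summed to 3172 CPM in it against 2281 and 2210 CPM in replicates 2 and 3. The list's counts and its called genes are given with and without it.

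The difference of responses was called for 1113 of 15664 genes, 7.11% of those tested, by edgeR's quasi-likelihood test with Benjamini-Hochberg adjustment at 0.05. In 435 genes (2.78%) the response was higher in the knock-in and in 678 (4.33%) it was lower. At an unadjusted p under 0.05 there were 3147 genes (20.1%). Most differences were modest: the median size among the called was 0.34 on the log2 scale, 885 were under 1.5-fold and 75 were at least 2-fold (34 higher and 41 lower). With scaling to total counts in place of TMM, 663 genes were called higher and 519 lower, so the share of higher calls went from 39.1% to 56.1%, while the median difference over all genes, −0.0058 with TMM, moved by less than 0.1. Each genotype gives 9 pairings of a treated with an untreated library. Over these pairings the responses of the 2 genotypes did not overlap in 982 of the 1113 called genes, against 11.2% of all tested genes, the called ones included. The calls come from the same libraries, so this describes them and is no separate check.

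The 2 responses resembled each other over genes. Across the 15664 genes Pearson's r between the log2 responses was 0.80 and Spearman's rank coefficient 0.69. The 2 responses share no library, and genes are not independent replicates. Of all tested genes, 15261 differed by less than 2-fold between the responses. Of the 1015 genes with a wild-type response of at least 2-fold, 268 (26.4%) had a called difference.

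By kind, 843 of the 1113 differences (75.7%) were blunted, meaning that the wild type responded and the knock-in responded less or was not called. Of these, 539 were rises and 304 falls, and in 328 the knock-in response was not called at all. Another 224 (20.1%) were enhanced, with 110 larger rises and 114 larger falls in the knock-in, and 143 of them had no called wild-type response. In 42 genes (3.77%) both responses were called with opposite signs, and 4 fitted none of these kinds. Kinds rest on thresholds and describe the calls without a test of their own.

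**Figure D1:**
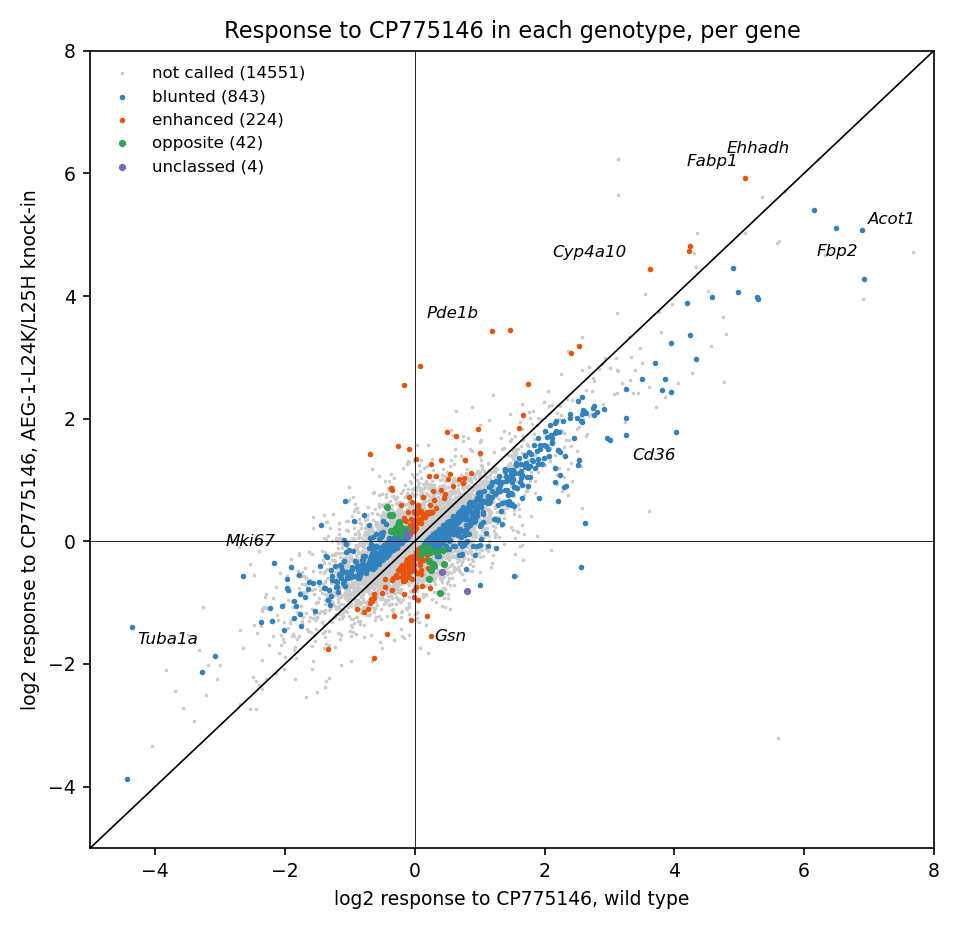
Each point is 1 of 15664 genes, with its log2 response to CP775146 in wild type (x axis) and in the AEG-1-L24K/L25H knock-in (y axis), and the diagonal marks equal responses. Blue points (843, blunted) lie between the diagonal and the horizontal axis for most genes, orange points (224, enhanced) lie beyond the diagonal, green points (42) are opposite responses and purple points (4) are unclassed.

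A difference of log2 responses can sit in the untreated cells, in the treated cells or in both. Among the 1113 genes the genotypes differed (edgeR adjusted p below 0.05) only untreated in 230, only treated in 364, in both states with the same sign in 426, in both states with opposite signs in 88 and in neither in 5. In 56 genes the difference of responses had the other sign when taken in CPM in place of log2. Cd36 was 1 of them.

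Classical PPAR-alpha targets were the group with the most called members. Of 65 tested targets, 42 had a lower response in the knock-in and 7 a higher one, against 4.33% and 2.78% of all genes. Every list count below stands beside these same shares. The median difference over the 65 was −0.31, against −0.0058 over all genes, with 55 below 0 and 10 above. Leaving out each library in turn gave 37 to 43 lower and 6 or 7 higher. The list was drawn up with results of these data known, so the counts describe it. All 42 were still called as rises in both genotypes, so the knock-in response was smaller on the log2 scale and not lost. The gain in CPM was larger in the knock-in for 26 of the 539 blunted rises over all genes. Besides Cd36 these included Acot1 (by 27.1 CPM), Acot2 (86.7 CPM) and Cpt1a (6.78 CPM). In untreated cells 33 of the 42 were already higher in the knock-in than in wild type and 4 lower, while in treated cells 11 were higher and 22 lower. In 13 of the 42 the genotypes crossed, with the knock-in higher untreated and lower treated.

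**Figure D2:**
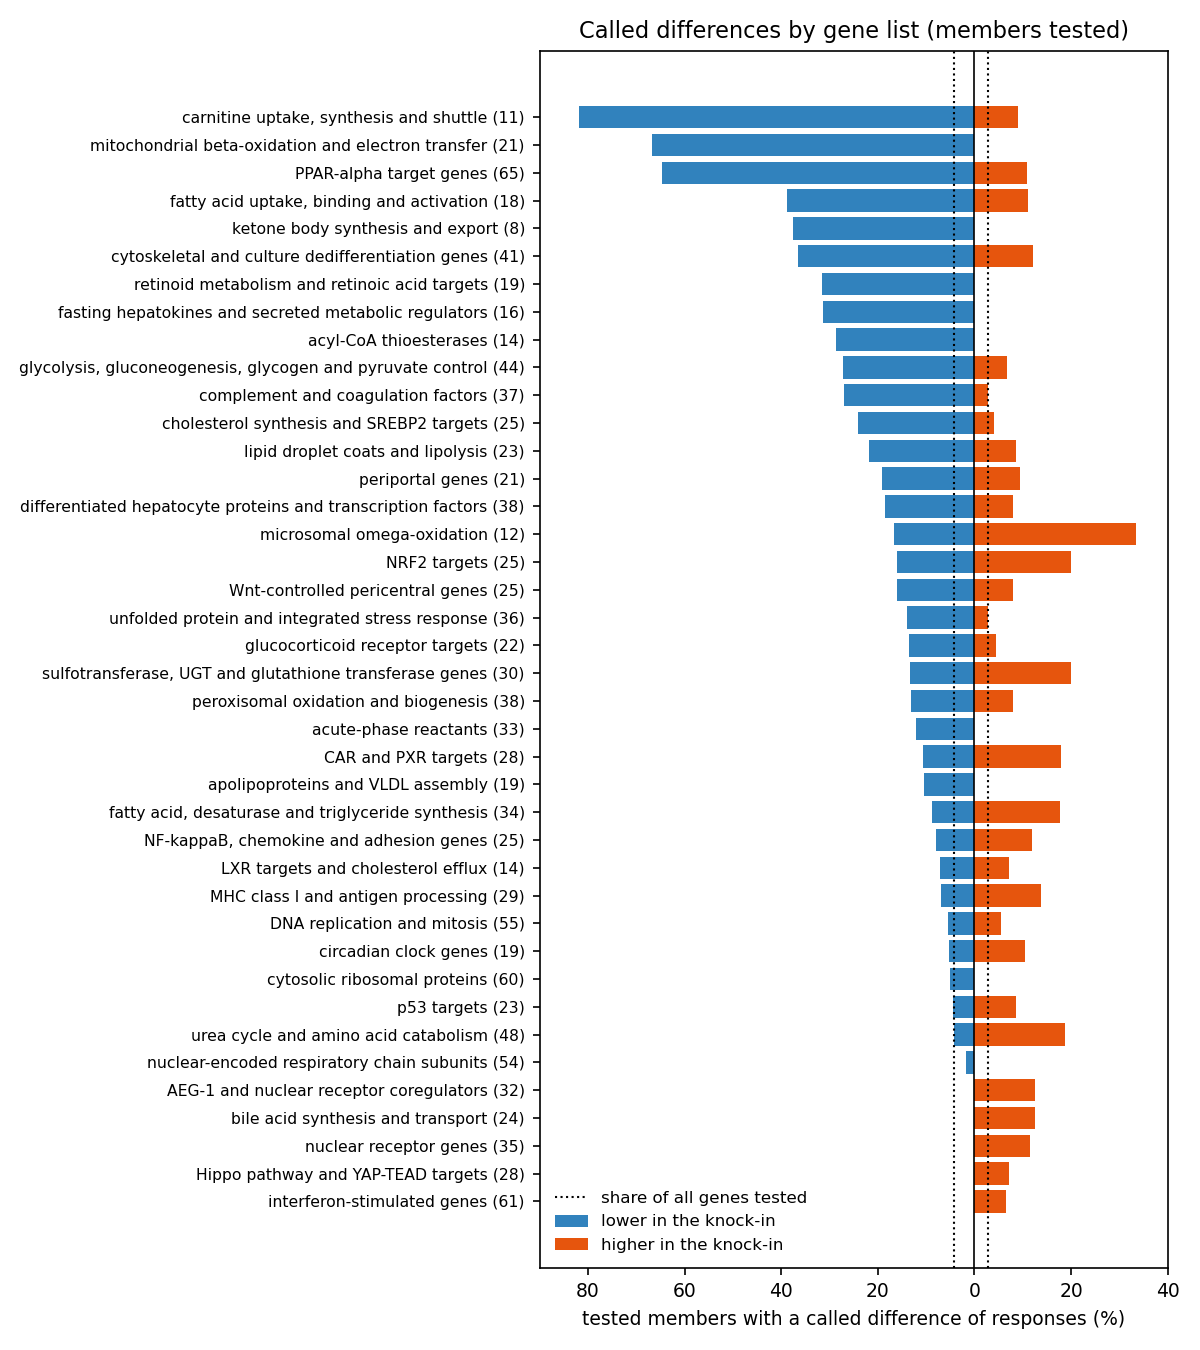
Each row is a gene list with its number of tested members, and the bars give the percent of them with a called lower (blue, to the left) or higher (orange, to the right) response in the knock-in. Dotted lines mark the shares over all genes, 4.33% lower and 2.78% higher, and the longest blue bars are the carnitine shuttle (9 of 11), mitochondrial beta-oxidation (14 of 21) and the PPAR-alpha targets (42 of 65).

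Genes of fatty acid uptake and activation held one of the largest blunted rises. Of 18 tested genes 7 were lower and 2 higher. Cd36, the fatty acid translocase (chromosome 5, 17781690 to 17888801 in GRCm38), was at 70.7, 64.2 and 84.8 CPM in untreated wild type, 680.4, 728 and 692 CPM in treated wild type, 558, 562 and 569 CPM in the untreated knock-in and 1904, 1769.6 and 1932 CPM in the treated knock-in. The untreated knock-in libraries lay nearer to the treated than to the untreated wild-type ones, and no groups overlapped. It rose 9.55-fold in wild type and 3.32-fold in the knock-in, a difference of −1.52 ± 0.10, edgeR adjusted p = 8.1e-07. In CPM its gain was larger in the knock-in, by 679 CPM, beside the higher start. Dbi, the acyl-CoA binding protein, rose 2.86-fold in wild type and 2.03-fold in the knock-in (−0.50 ± 0.063, edgeR adjusted p = 4.0e-06), and Fabp5, a fatty acid binding protein, rose 2.73-fold in wild type and 1.57-fold in the knock-in (−0.79 ± 0.13, edgeR adjusted p = 9.1e-05).

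The carnitine shuttle, which carries long-chain fatty acids into mitochondria, was called lower in 9 of 11 tested genes and higher in 1. The count was 9 lower without any single library as well. Slc25a20, the carnitine-acylcarnitine carrier of the inner membrane, was at 49.9, 47.3 and 53.2 CPM in untreated wild type, 212, 205 and 233 CPM in treated wild type, 70.5, 69.1 and 72.6 CPM in the untreated knock-in and 217, 212 and 221 CPM in the treated knock-in. Untreated knock-in libraries lay above the wild-type ones, and the treated groups were near each other. Its rise was 4.32-fold in wild type and 3.06-fold in the knock-in (−0.50 ± 0.066, edgeR adjusted p = 7.8e-06). Cpt2, the inner-membrane carnitine palmitoyltransferase, was 91.7, 100.4 and 93.9 CPM untreated and 322, 325 and 355 CPM treated in wild type, 109, 112 and 114 CPM untreated and 278, 284 and 276 CPM treated in the knock-in. Here the knock-in started higher and ended lower than wild type, with rises of 3.504-fold in wild type and 2.503-fold in the knock-in (−0.49 ± 0.059, edgeR adjusted p = 1.8e-06). Cpt1a, the outer-membrane enzyme and rate-limiting step, rose 2.46-fold in wild type and 1.98-fold in the knock-in (−0.31 ± 0.064, edgeR adjusted p = 0.0018). Aldh9a1, an enzyme of carnitine synthesis, rose 3.53-fold in wild type and 2.48-fold in the knock-in (−0.51 ± 0.058, edgeR adjusted p = 6.1e-07). Mlycd, which degrades the CPT1 inhibitor malonyl-CoA, rose 3.03-fold in wild type and 2.17-fold in the knock-in (−0.48 ± 0.061, edgeR adjusted p = 3.7e-06).

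Mitochondrial beta-oxidation was lower in 14 of 21 tested genes, with a median of −0.28. By edgeR 0 were higher, also at an unadjusted p under 0.05 (0) and by DESeq2 (0). The 14 were higher in the untreated knock-in in 10 cases and lower in the treated knock-in in 11, with 7 both. Acadl, the long-chain acyl-CoA dehydrogenase, was at 146, 136 and 155 CPM in untreated wild type, 516, 542 and 569 CPM in treated wild type, 189.6, 185 and 196 CPM in the untreated knock-in and 460.4, 447 and 459 CPM in the treated knock-in. The 3 treated wild-type libraries all exceeded the 3 treated knock-in libraries. The rise was 3.72-fold in wild type and 2.39-fold in the knock-in (−0.64 ± 0.061, edgeR adjusted p = 3.6e-08). Hadha, the alpha subunit of the trifunctional protein, was 271, 269.6 and 278 CPM untreated and 1625, 1655 and 1724 CPM treated in wild type, 301, 303 and 297 CPM untreated and 1295, 1316 and 1342 CPM treated in the knock-in. Its groups also crossed, and it rose 6.12-fold in wild type and 4.39-fold in the knock-in (−0.48 ± 0.050, edgeR adjusted p = 1.3e-07). Etfdh, which passes electrons from the dehydrogenases to ubiquinone, rose 3.61-fold in wild type and 2.29-fold in the knock-in (−0.66 ± 0.067, edgeR adjusted p = 1.8e-07), and Decr1, the 2,4-dienoyl-CoA reductase needed for unsaturated fatty acids, rose 5.89-fold in wild type and 3.88-fold in the knock-in (−0.60 ± 0.068, edgeR adjusted p = 9.1e-07).

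**Figure D3:**
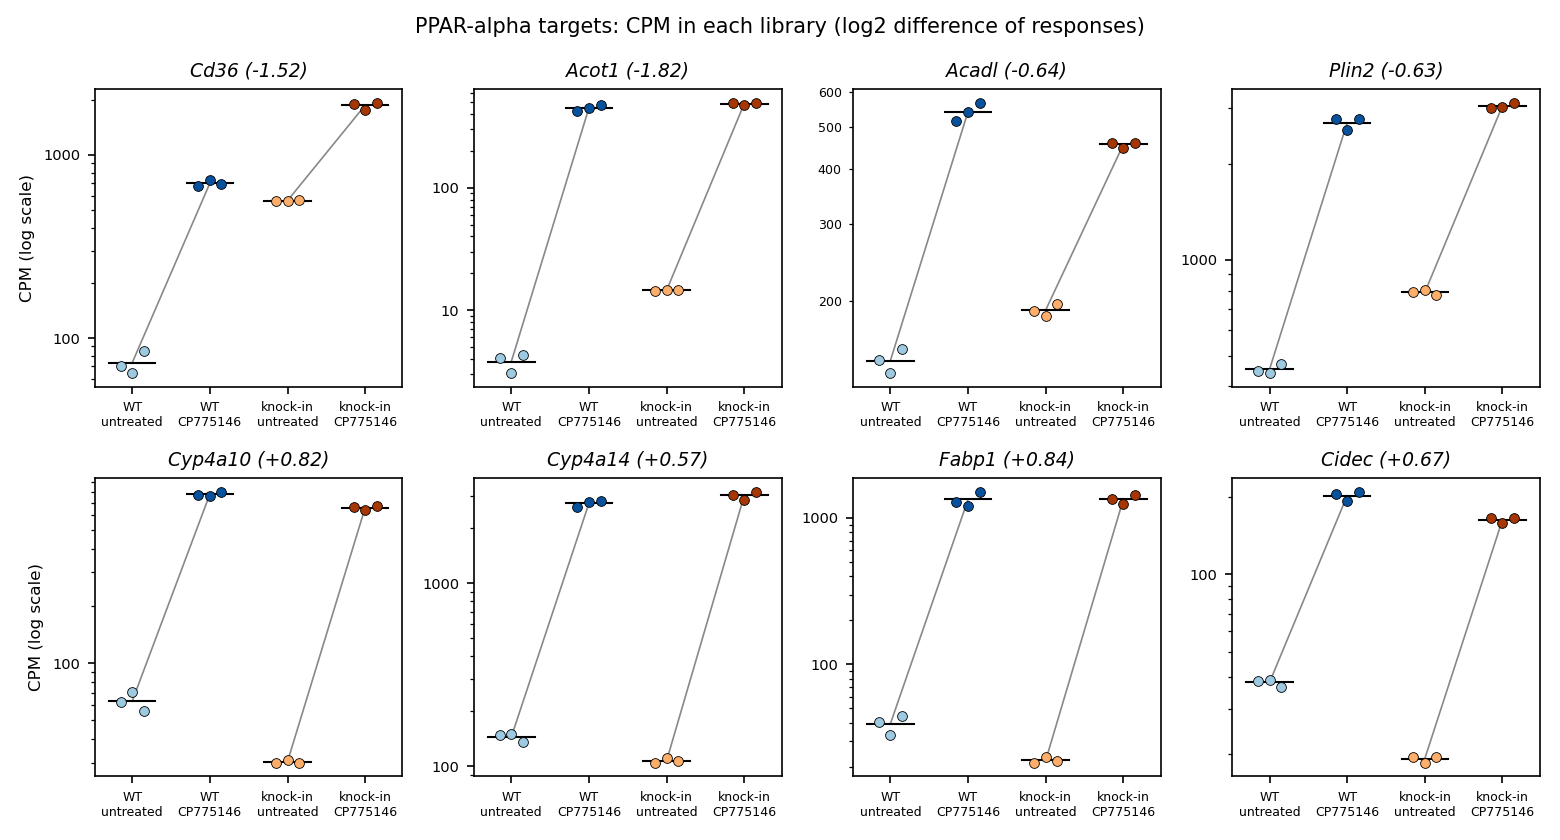
CPM in each of the 12 libraries for PPAR-alpha targets (y axes on a log scale), by genotype and treatment, with the group mean as a bar, lines joining untreated and treated means, and the difference of log2 responses in each title. Cd36 (−1.52) starts far higher in the untreated knock-in, while Fabp1 (0.84) and Cyp4a10 (0.82) have the steeper line in the knock-in.

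The peroxisomal pathway had calls both ways. Of 38 tested peroxisomal genes 5 were lower and 3 higher. Ehhadh, the bifunctional enzyme of peroxisomal beta-oxidation, was 55.6, 51.1 and 50.9 CPM untreated and 3819, 3873 and 4001 CPM treated in wild type, 69.3, 68.9 and 67.999 CPM untreated and 5078, 5138 and 5255 CPM treated in the knock-in. It was higher in the knock-in in both states and rose 74.2-fold in wild type and 75.01-fold in the knock-in, and its difference was not called (0.016 ± 0.056, edgeR adjusted p = 0.92). Ech1, a dienoyl-CoA isomerase of peroxisomes and mitochondria, had a blunted rise, 6.76-fold in wild type and 4.17-fold in the knock-in (−0.70 ± 0.060, edgeR adjusted p = 5.3e-09). Abcd3, which imports fatty acyl-CoA into the organelle, rose 4.86-fold in wild type and 3.88-fold in the knock-in (−0.33 ± 0.057, edgeR adjusted p = 3.2e-04), and Hsd17b4, the D-bifunctional protein, rose 3.45-fold in wild type and 2.67-fold in the knock-in (−0.37 ± 0.059, edgeR adjusted p = 1.2e-04).

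Microsomal omega-oxidation, the cytochrome P450 route that hydroxylates the far end of a fatty acid, held enhanced targets. Of 12 tested genes 4 were higher and 2 lower. Among the 4 higher, 3 were enhanced and 1, Cyp4f15, had opposite responses. Cyp4a10, a fatty acid omega-hydroxylase (chromosome 4, 115518264 to 115533649), was at 62.8, 70.5 and 55.9 CPM in untreated wild type, 769.5, 758 and 798 CPM in treated wild type, 29.998, 30.97 and 30.01 CPM in the untreated knock-in and 664, 637 and 674 CPM in the treated knock-in. The knock-in was below the wild type in both states, and by a larger ratio in untreated cells. It rose 12.3-fold in wild type and 21.7-fold in the knock-in (0.82 ± 0.077, edgeR adjusted p = 1.2e-07). In CPM the gain, knock-in minus wild type, was −84.03 CPM, so on that scale it was smaller in the knock-in. Cyp4a14 was 148, 149.5 and 136 CPM untreated and 2603, 2787 and 2836 CPM treated in wild type, 105, 110.4 and 107 CPM untreated and 3037, 2868 and 3166 CPM treated in the knock-in. It started lower and ended higher in the knock-in, with rises of 18.97-fold in wild type and 28.2-fold in the knock-in (0.57 ± 0.062, edgeR adjusted p = 2.8e-07). Cyp4a31 rose 23.8-fold in wild type and 15.8-fold in the knock-in (−0.59 ± 0.10, edgeR adjusted p = 1.6e-04). The Cyp4a genes are close copies, and the counting could split reads between them, so their single values are uncertain.

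Fatty acid binding and lipid storage were mixed. Fabp1, the main fatty acid carrier of the hepatocyte cytosol, was at 40.6, 33.1 and 44.2 CPM in untreated wild type, 1293, 1214 and 1509 CPM in treated wild type, 21.4, 23.2 and 21.7 CPM in the untreated knock-in and 1343, 1255 and 1432 CPM in the treated knock-in. It rose 34.02-fold in wild type and 60.8-fold in the knock-in (0.84 ± 0.17, edgeR adjusted p = 0.017), and without untreated knock-in replicate 1 the edgeR adjusted p was 0.053. Fabp2 rose 3.34-fold in wild type and 5.93-fold in the knock-in (0.83 ± 0.16, edgeR adjusted p = 0.001). Of 23 tested lipid droplet genes 5 were lower and 2 higher. Plin2, the coat protein of lipid droplets, was 447, 439.8 and 469.8 CPM untreated and 2759, 2554 and 2766 CPM treated in wild type, 789, 803 and 776 CPM untreated and 2996, 3028 and 3117 CPM treated in the knock-in. The knock-in was higher in both states, and the fold was smaller, 5.95-fold in wild type and 3.86-fold in the knock-in (−0.63 ± 0.054, edgeR adjusted p = 5.3e-09). Cidec, which fuses droplets, was 38.6, 38.9 and 36.5 CPM untreated and 204, 192 and 209 CPM treated in wild type, 19.6, 18.6 and 19.6 CPM untreated and 166, 158 and 165 CPM treated in the knock-in. It was lower in the knock-in in both states and rose more by fold, 5.302-fold in wild type and 8.44-fold in the knock-in (0.67 ± 0.065, edgeR adjusted p = 3.9e-08). In CPM its gain, knock-in minus wild type, was −20.1 CPM, so on that scale it was smaller in the knock-in. Hilpda, an inhibitor of triglyceride lipolysis, rose 9.56-fold in wild type and 5.62-fold in the knock-in (−0.77 ± 0.081, edgeR adjusted p = 1.6e-07), and Mgll, the monoacylglycerol lipase, rose 6.003-fold in wild type and 4.397-fold in the knock-in (−0.45 ± 0.066, edgeR adjusted p = 3.6e-05). Cidea, a relative of Cidec, rose 16.4-fold in wild type and 3.45-fold in the knock-in (−2.25 ± 0.53, edgeR adjusted p = 0.0091) at a mean of 1.41 CPM over the 12 libraries.

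Acyl-CoA thioesterases, which release free fatty acids from their CoA esters, were lower in 4 of 14 tested genes and higher in 0 by edgeR (0 at an unadjusted p under 0.05 and 0 by DESeq2). Acot1 was at 4.07, 3.04 and 4.26 CPM in untreated wild type, 425, 452 and 475 CPM in treated wild type, 14.2, 14.7 and 14.6 CPM in the untreated knock-in and 498, 474 and 493 CPM in the treated knock-in. It was higher in the untreated and treated knock-in and had one of the largest blunted rises by fold, 118-fold in wild type and 33.6-fold in the knock-in (−1.82 ± 0.10, edgeR adjusted p = 9.6e-13). Its neighbour Acot2 rose 19.03-fold in wild type and 10.3-fold in the knock-in (−0.88 ± 0.072, edgeR adjusted p = 5.3e-09), and Acot3 rose 71.02-fold in wild type and 42.1-fold in the knock-in (−0.75 ± 0.20, edgeR adjusted p = 0.018). The Acot3 call was lost in 5 of 22 alternatives, among them without untreated knock-in replicate 1 (edgeR adjusted p = 0.073), untreated wild-type replicate 1 (0.056) or untreated wild-type replicate 3 (0.055). Acot1, Acot2 and Acot3 are near-identical copies beside each other on chromosome 12, and reads could be divided among them.

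Ketone body genes were lower in 3 of 8 tested and higher in 0 by edgeR (0 at an unadjusted p under 0.05 and 0 by DESeq2). Slc16a1, the monocarboxylate carrier that exports ketone bodies, was at 131, 132 and 126 CPM in untreated wild type, 306, 316 and 332 CPM in treated wild type, 126, 126 and 125 CPM in the untreated knock-in and 260.4, 263 and 262 CPM in the treated knock-in. Its treated libraries were lower in the knock-in, and it rose 2.45-fold in wild type and 2.08-fold in the knock-in (−0.23 ± 0.053, edgeR adjusted p = 0.0045).

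Of 16 tested hepatokines, proteins that the liver secretes as hormones, 5 were lower and 0 higher by edgeR (1 at an unadjusted p under 0.05 and 0 by DESeq2). Fgf21, the fasting hormone, was 1.47, 1.16 and 1.79 CPM untreated and 7.52, 7.25 and 7.73 CPM treated in wild type, 2.71, 3.39 and 2.699 CPM untreated and 15.6, 12.5 and 15.6 CPM treated in the knock-in. It rose 5.06-fold in wild type and 4.97-fold in the knock-in, and its difference was not called (−0.025 ± 0.19, edgeR adjusted p = 0.97). Angptl4, a secreted inhibitor of lipoprotein lipase, rose 3.28-fold in wild type and 2.42-fold in the knock-in (−0.44 ± 0.065, edgeR adjusted p = 4.4e-05). Inhbe, a subunit of activin E, rose 5.498-fold in wild type and 3.21-fold in the knock-in (−0.78 ± 0.10, edgeR adjusted p = 6.6e-06), and Enho, which encodes adropin, rose 1.66-fold in wild type and was at 0.946 times its untreated level in the knock-in (−0.81 ± 0.14, edgeR adjusted p = 3.8e-04). Other targets with blunted rises were Vnn1, a pantetheinase, with 7.02-fold in wild type and 4.33-fold in the knock-in (−0.70 ± 0.080), Creb3l3, a liver transcription factor, with 11.4-fold in wild type and 6.25-fold in the knock-in (−0.86 ± 0.067), and Pdk4, which holds back pyruvate oxidation, with 29.99-fold in wild type and 22.03-fold in the knock-in (−0.45 ± 0.070).

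Glucose and glycogen genes were lower in 12 of 44 tested and higher in 3. Without untreated knock-in replicate 1 the lower count was 6, and without untreated knock-in replicate 2 or treated knock-in replicate 1 or 3 it was 7. Fbp2, a fructose bisphosphatase best known from muscle, was at 1.76, 2.03 and 1.75 CPM in untreated wild type, 161, 162 and 177 CPM in treated wild type, 3.69, 3.82 and 3.32 CPM in the untreated knock-in and 117, 131 and 124 CPM in the treated knock-in. It started higher and ended lower in the knock-in, and rose 90.2-fold in wild type and 34.4-fold in the knock-in (−1.39 ± 0.14, edgeR adjusted p = 7.2e-08). Fbp1, the liver form and a step of gluconeogenesis, rose 2.89-fold in wild type and 1.86-fold in the knock-in (−0.64 ± 0.062, edgeR adjusted p = 4.0e-08), and Gys2, the liver glycogen synthase, rose 1.95-fold in wild type and 1.397-fold in the knock-in (−0.48 ± 0.072, edgeR adjusted p = 3.9e-05).

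Some of the genes that CP775146 lowered in wild type were lowered less in the knock-in on the log2 scale. In CPM the loss was larger in the knock-in for 22 of the 304 blunted falls over all genes. Cps1, which begins the urea cycle, was 2003, 1810.4 and 2095 CPM untreated and 537, 564 and 524 CPM treated in wild type, 1864, 1859 and 1888 CPM untreated and 801, 759 and 809 CPM treated in the knock-in. The untreated libraries of the 2 genotypes lay together and the treated ones apart, at 0.275 times its untreated level in wild type and 0.422 times in the knock-in (0.62 ± 0.061, edgeR adjusted p = 7.2e-08). Of 48 tested urea cycle and amino acid genes 9 were higher and 2 lower. Hpd, an enzyme of tyrosine breakdown, was at 0.295 times its untreated level in wild type and 0.441 times in the knock-in (0.58 ± 0.080, edgeR adjusted p = 1.7e-05), and Glul, the glutamine synthetase, rose more in the knock-in, 1.16-fold in wild type and 2.096-fold in the knock-in (0.85 ± 0.079, edgeR adjusted p = 3.3e-08). Otc, the next urea cycle enzyme, had a blunted rise of 1.62-fold in wild type and 1.15-fold in the knock-in (−0.49 ± 0.062, edgeR adjusted p = 3.3e-06).

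Interferon-induced genes had the highest median difference of the pathway lists, 0.51 over 61 genes, and were the list whose calls moved most with a single library. With all 12 libraries 4 of 61 were called higher and 0 lower by edgeR (0 lower at an unadjusted p under 0.05 and 0 by DESeq2), against 2.78% and 4.33% of all genes. Without treated wild-type replicate 1, 45 of 61 were called higher, with 60 above 0 and a median of 0.79, while 638 genes in all were called higher. Without treated wild-type replicate 2 or 3 it was 5 or 4. Treated wild-type replicate 1 was singled out by its high level of these same genes. Leaving it out lowers their wild-type response and so tends to raise their differences. The counts and adjusted p-values without it, here and below, show its weight and are no support of their own. The summed level of the 61 was 2226, 2083 and 2159 CPM in untreated and 3172, 2281 and 2210 CPM in treated wild type. In the knock-in it was 2384, 2476 and 2208 CPM untreated and 3633, 3530 and 3649 CPM treated. All 3 treated knock-in libraries were above all other libraries, and treated wild-type replicate 1 lay between them and the rest. What sets that library apart was not tested.

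The promoters of 3 interferon-induced genes are shown because they hold the letters GAAANNGAA, the core of the interferon-stimulated response element. Of these, Tgtp1 is not among the 61 genes of the list. Sequences are from RefSeq on GRCm38.p6, 5′ to 3′ on the gene's strand, with the motif in capitals. Each is a stretch of the window from 250 bases before to 50 after the start of the gene, whose coordinates are given. The motif begins 213 bases before the start in Cxcl10, 75 before it in Oas3 and 77 before it in Tgtp1.
Cxcl10 (chr5:92348840-92349139, minus strand): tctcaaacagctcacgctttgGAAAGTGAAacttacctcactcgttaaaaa
Oas3 (chr5:120777610-120777909, minus strand): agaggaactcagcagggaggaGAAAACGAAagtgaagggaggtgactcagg
Tgtp1 (chr11:48992197-48992496, minus strand): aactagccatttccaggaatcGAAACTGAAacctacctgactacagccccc
In Oas3 a further match overlaps the one in capitals. Both strands were searched. The motif was in 57.4% of the 47 promoters found for the interferon list and in 9.76% of all 27025 promoters of the same length. Among the 10424 found for tested genes it was in 8.52%. For enhanced genes it was in 10.8% of the 185 found, with 15.96% for enhanced rises and 5.49% for enhanced falls. For blunted genes it was in 9.11% of the 626 found, with 8.42% for rises and 10.3% for falls. A match describes the letters and shows no binding.

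Slfn2, an interferon-induced regulator of immune cell growth, had 0.403, 0.263 and 0.251 CPM untreated and 0.394, 0.3404 and 0.223 CPM treated in wild type, 0.4101, 0.336 and 0.114 CPM untreated and 2.16, 1.75 and 2.28 CPM treated in the knock-in. The treated knock-in libraries lay above all others, with a rise of 7.24-fold against a ratio of 1.05 in wild type (2.78 ± 0.54, edgeR adjusted p = 0.0012), and the difference was 2.97 (edgeR adjusted p = 0.0012) without treated wild-type replicate 1. Oas3, an antiviral 2′-5′-oligoadenylate synthetase, was at 1.795, 1.88 and 1.65 CPM in untreated wild type, 2.56, 1.36 and 1.41 CPM in treated wild type, 1.92, 1.92 and 2.24 CPM in the untreated knock-in and 5.46, 4.78 and 5.29 CPM in the treated knock-in. Treated wild-type replicate 1 was nearest to the treated knock-in. Its difference was 1.33 ± 0.26, edgeR adjusted p = 9.8e-04, and 1.71 (edgeR adjusted p = 8.4e-06) without that library. Cxcl10, a chemokine for T cells, was 3.26, 2.59 and 2.36 CPM untreated and 2.86, 1.57 and 1.97 CPM treated in wild type, 1.96, 2.504 and 2.13 CPM untreated and 3.46, 3.89 and 4.33 CPM treated in the knock-in. Its treated level was 0.782 times its untreated level in wild type and 1.78 times in the knock-in (1.18 ± 0.25, edgeR adjusted p = 0.0026), with a difference of 1.48 (edgeR adjusted p = 1.3e-04) without that library. Ifi47, an interferon-induced GTPase, differed by 0.59 ± 0.13, edgeR adjusted p = 0.0085, and by 0.76 (edgeR adjusted p = 2.1e-05) without it. Tgtp1, another such GTPase, is outside the list and its counts, and a near-identical copy can share its reads. It fell to 0.369 of its untreated level in wild type and was at 1.203 times that level in the knock-in (1.70 ± 0.31, edgeR adjusted p = 0.0011). Its difference without the same library was 2.03 (edgeR adjusted p = 1.7e-04).

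**Figure D4:**
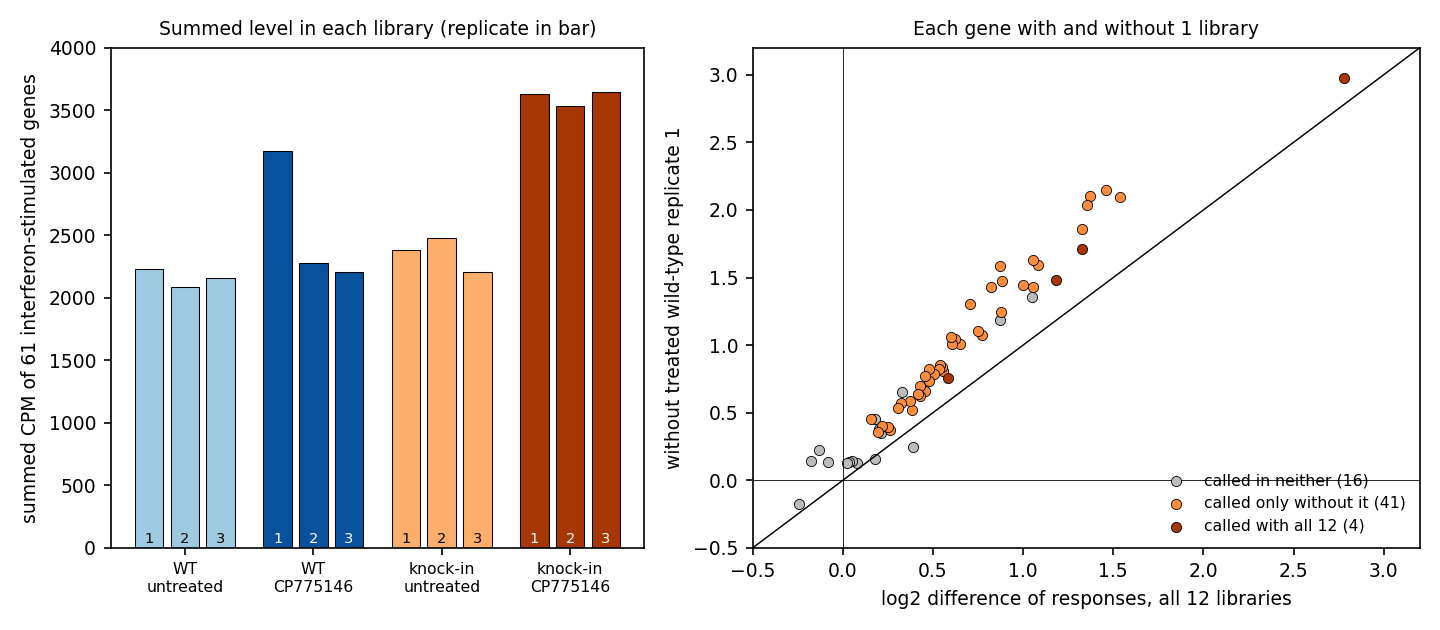
Left, the summed CPM of the 61 interferon-induced genes in each library (bars, replicate number in each). Right, each gene's difference of log2 responses with all 12 libraries (x axis) and without treated wild-type replicate 1 (y axis), with 4 genes called in both, 41 called only without it and 16 in neither. Treated wild-type replicate 1 sits above replicates 2 and 3 (3172 against 2281 and 2210 CPM in the sum), and the treated knock-in libraries lie at 3530 to 3649 CPM.

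Oasl2 and Ifi44 show how that library bears on a call, and were chosen after their values were seen. Ifi44 was at 6.01, 4.397 and 4.19 CPM in untreated wild type, 9.59, 3.404 and 3.68 CPM in treated wild type, 5.27, 5.59 and 4.404 CPM in the untreated knock-in and 14.8, 14.5 and 15.6 CPM in the treated knock-in. With all 12 libraries its difference was 1.35 (edgeR adjusted p = 0.18), and without treated wild-type replicate 1 it was 2.04 (edgeR adjusted p = 1.8e-08). Oasl2 went from 1.53 (edgeR adjusted p = 0.12) to 2.09 (edgeR adjusted p = 0.0023). MHC and antigen-processing genes went from 4 called higher of 29 tested, with 2 lower, to 10 higher without the same library, and to 1 or 2 without treated wild-type replicate 2 or 3, or without any 1 of the knock-in libraries except treated replicate 2. H2-Q2, a class I gene, rose 8.01-fold in wild type and 3.15-fold in the knock-in (−1.35 ± 0.13, edgeR adjusted p = 5.7e-08) and H2-Q6 was at 1.04 times its untreated level in wild type and 1.51 times in the knock-in (0.54 ± 0.10, edgeR adjusted p = 3.7e-04). The H2-Q genes are close copies and their values are uncertain.

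Of 37 tested complement and coagulation genes, proteins that the liver secretes, 10 were lower and 1 higher, against 4.33% and 2.78% of all genes. Of these 10, 8 were already lower in the untreated knock-in and 9 were lower in the treated knock-in. Cfi, the complement factor I protease, was at 566, 547 and 581 CPM in untreated wild type, 576, 599 and 609 CPM in treated wild type, 493, 496 and 476 CPM in the untreated knock-in and 402, 409 and 407 CPM in the treated knock-in. Its treated level was 1.05 times its untreated level in wild type and 0.832 times in the knock-in, where the fall was called (−0.34 ± 0.051, edgeR adjusted p = 3.9e-05). C4bp, the C4b-binding protein, was 132, 131 and 132 CPM untreated and 116, 119 and 123 CPM treated in wild type, 141, 145 and 143 CPM untreated and 95.01, 92.4 and 96.2 CPM treated in the knock-in. It fell in both genotypes and further in the knock-in, to 0.905 times its untreated level in wild type and 0.661 times in the knock-in (−0.45 ± 0.053, edgeR adjusted p = 7.9e-07). Mbl2, a mannose-binding lectin, was at 0.985 times its untreated level in wild type and 0.761 times in the knock-in (−0.37 ± 0.065, edgeR adjusted p = 4.3e-04). Of 33 tested acute-phase genes 4 were lower and 0 higher by edgeR (0 at an unadjusted p under 0.05 and 0 by DESeq2), among them the fibrinogen chains Fgg (−0.35 ± 0.055, edgeR adjusted p = 7.7e-05) and Fgb (−0.23 ± 0.058, edgeR adjusted p = 0.011). The Fgb call was lost without untreated knock-in replicate 2 (edgeR adjusted p = 0.059) or treated wild-type replicate 1 (edgeR adjusted p = 0.052).

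Of 38 tested hepatocyte identity genes 7 were lower and 3 higher, and the lower count was 3 or 4 without any of 5 single libraries (treated knock-in replicate 1, untreated knock-in replicates 1 and 2, treated wild-type replicate 3, untreated wild-type replicate 1). Ahsg, the secreted glycoprotein fetuin-A, fell to 0.627 times its untreated level in wild type and 0.521 times in the knock-in (−0.27 ± 0.056, edgeR adjusted p = 0.0021). Trf, transferrin, rose 1.15-fold in wild type and fell to 0.917 of its untreated level in the knock-in (−0.33 ± 0.056, edgeR adjusted p = 2.4e-04), and 63.5% of its exon bases overlap another gene model. The median difference over the 38 was −0.015, with 17 above 0 and 21 below. The summed hepatocyte markers share genes such as Cps1 with this list, so they are no separate check on it. They were 128212 to 130914 CPM in untreated and 127501 to 133928 CPM in treated wild type, 91478 to 96070 CPM in untreated and 82817 to 85495 CPM in treated knock-in. All 12 markers were detected. Their part in the calls was not tested.

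Summed markers of 3 other liver cell types were lower in the knock-in than in wild type in the same state. They were also lower after treatment, except that the wild-type ranges of the stellate markers overlapped. The 12 macrophage markers summed to 218 to 258 and 188 to 193 CPM in untreated and treated wild type, and to 159 to 169 and 112 to 127 CPM in the knock-in. The 12 endothelial markers summed to 164 to 182, 121 to 129.9, 82.2 to 90.9 and 61.6 to 67.4 CPM, and the 12 stellate markers to 192 to 224, 164 to 201, 111 to 125 and 70.4 to 80.6 CPM, in the same order. Most of the macrophage sum was a single gene, Cd68, with means of 234, 185, 151 and 110 CPM in that order. Most of the stellate sum was Reln. These sums therefore speak little for the other markers. Csf1r, a macrophage marker, had no called genotype difference in either state. Among the 11, 11 and 9 tested, 0 differences were called by edgeR in either direction, with 0, 1 and 1 lower both at an unadjusted p under 0.05 and by DESeq2, and 0 higher. Their part in the results was not tested.

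Genes that hepatocytes raise as they lose their differentiated state in culture were lower in 15 and higher in 5 of 41 tested. The part of time in culture in these responses was not tested. Of the 15, 14 were already higher in the untreated knock-in and 9 were higher in the treated knock-in. Lgals3, a galectin, was at 32.97, 36.7 and 30.7 CPM in untreated wild type, 131, 129 and 138 CPM in treated wild type, 48.4, 51.7 and 50.7 CPM in the untreated knock-in and 126, 133 and 129.6 CPM in the treated knock-in. Untreated knock-in libraries were higher than untreated wild-type ones, and it rose 3.98-fold in wild type and 2.58-fold in the knock-in (−0.63 ± 0.070, edgeR adjusted p = 4.0e-07). Anxa3, an annexin, rose 1.52-fold in wild type and 1.13-fold in the knock-in (−0.42 ± 0.051, edgeR adjusted p = 1.6e-06). Tagln, an actin-binding protein of contractile cells, was 25.5, 25.4 and 25.9996 CPM untreated and 25.2, 27.98 and 26.1 CPM treated in wild type, 26.6, 26.2 and 25.4 CPM untreated and 12.8, 14.1 and 13.4 CPM treated in the knock-in. Its treated level was 1.03 times its untreated level in wild type and 0.516 times in the knock-in, where the fall was called (−0.996 ± 0.081, edgeR adjusted p = 2.3e-09). Tuba1a, an alpha-tubulin, was 41.5, 44.7 and 44.2 CPM untreated and 6.08, 4.697 and 4.57 CPM treated in wild type, 36.2, 32.99 and 35.3 CPM untreated and 10.3, 9.05 and 9.23 CPM treated in the knock-in. It fell further in wild type, to 0.118 times its untreated level in wild type and 0.273 times in the knock-in (1.21 ± 0.11, edgeR adjusted p = 2.0e-08). The cholangiocyte markers, which dedifferentiating hepatocytes can also express, summed to 34.4 to 38.4 CPM in untreated and 48.8 to 49.8 CPM in treated wild type, and to 64.3 to 67.3 and 66.3 to 70.8 CPM in the knock-in. Of 6 tested, 3 were lower. Krt19, a keratin of bile duct cells, was 3.52, 3.42 and 3.22 CPM untreated and 6.64, 6.43 and 5.91 CPM treated in wild type, 9.15, 8.86 and 9.63 CPM untreated and 8.92, 8.25 and 8.95 CPM treated in the knock-in. It rose 1.87-fold in wild type, and its ratio of 0.945 in the knock-in was not called (−0.99 ± 0.13, edgeR adjusted p = 9.3e-06). Sox9, a transcription factor of duct cells, rose 2.64-fold in wild type and 1.97-fold in the knock-in (−0.43 ± 0.11, edgeR adjusted p = 0.013), with an edgeR adjusted p of 0.0502 without untreated knock-in replicate 1.

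Of 55 tested cell cycle genes 3 were higher and 3 lower, near the 2.78% and 4.33% of all genes. The median difference over the list was 0.015, so the genes below are single cases. Mki67, the proliferation marker, was at 2.45, 2.56 and 2.58 CPM in untreated wild type, 0.854, 0.715 and 0.409 CPM in treated wild type, 11.6, 10.995 and 11.7 CPM in the untreated knock-in and 7.97, 8.49 and 9.12 CPM in the treated knock-in. The knock-in was higher in both states, by a larger ratio after treatment. It fell to 0.265 times its untreated level in wild type and 0.746 times in the knock-in (1.49 ± 0.22, edgeR adjusted p = 2.6e-05). In CPM its loss was larger in the knock-in, beside the higher start. Ccnd1, cyclin D1, fell to 0.508 times its untreated level in wild type and 0.684 times in the knock-in (0.43 ± 0.10, edgeR adjusted p = 0.0056). Its change in CPM was −6.47 in wild type and −11.9 in the knock-in, and 21.3% of its exon bases overlap another gene model. Mcm6, of the replicative helicase, was at 1.05 times its untreated level in wild type and 0.8304 times in the knock-in, where the fall was called (−0.34 ± 0.065, edgeR adjusted p = 9.5e-04). Iqgap3, a scaffold protein linked to proliferation, is not on this list and was named for its large difference. It fell to 0.222 of its untreated level in wild type and was at 0.782 times that level, not called, in the knock-in (1.81 ± 0.46, edgeR adjusted p = 0.013). Without untreated wild-type replicate 2 its edgeR adjusted p was 0.08.

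Opposite responses were small. Of the 42 genes, 23 rose in wild type and fell in the knock-in, 19 did the reverse, and 1 differed by at least 2-fold. That 1 was Cryab, a small heat shock protein, at 3.48, 3.46 and 3.19 CPM untreated and 4.96, 3.61 and 4.69 CPM treated in wild type, 8.296, 8.77 and 8.44 CPM untreated and 4.603, 4.85 and 4.73 CPM treated in the knock-in. The untreated knock-in was above all other groups, and the treated groups of the 2 genotypes lay close together. Its treated level was 1.31 times its untreated level in wild type and 0.556 times in the knock-in (−1.23 ± 0.16, edgeR adjusted p = 4.8e-06). Dusp6, a phosphatase that switches off ERK, was at 49.8, 52.4 and 45.1 CPM in untreated wild type, 64.7, 65.97 and 67.7 CPM in treated wild type, 61.6, 58.1 and 56.01 CPM in the untreated knock-in and 53.5, 54.5 and 51.8 CPM in the treated knock-in. The knock-in was higher untreated and lower treated, with 1 untreated wild-type library inside the range of the treated knock-in. It rose 1.35-fold in wild type and fell to 0.9096 of its untreated level in the knock-in (−0.57 ± 0.070, edgeR adjusted p = 2.4e-06). Aass, which starts lysine breakdown, was 52.6, 48.2 and 57.9 CPM untreated and 47.5, 42.6 and 42.3 CPM treated in wild type, 136, 141 and 145 CPM untreated and 169, 164 and 162 CPM treated in the knock-in. The knock-in was far higher in both states, and the treated level was 0.835 times its untreated level in wild type and 1.17 times in the knock-in (0.49 ± 0.074, edgeR adjusted p = 6.6e-05). Cyp4f15, a P450 of the omega-hydroxylase family, was 6.92, 8.68 and 7.84 CPM untreated and 5.85, 5.89 and 5.73 CPM treated in wild type, 3.596, 4.15 and 4.63 CPM untreated and 6.06, 5.67 and 6.59 CPM treated in the knock-in. It fell to 0.746 of its untreated level in wild type and rose 1.48-fold in the knock-in (0.99 ± 0.15, edgeR adjusted p = 6.8e-05). The 4 others named by the rule for this kind were Ptpn13, a tyrosine phosphatase (−0.83 ± 0.11), Spns2, a sphingosine-1-phosphate exporter (−0.71 ± 0.10), Dlc1, a GTPase-activating protein (−0.55 ± 0.071), and Fgfrl1, an FGF receptor-like protein (0.54 ± 0.073).

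**Figure D5:**
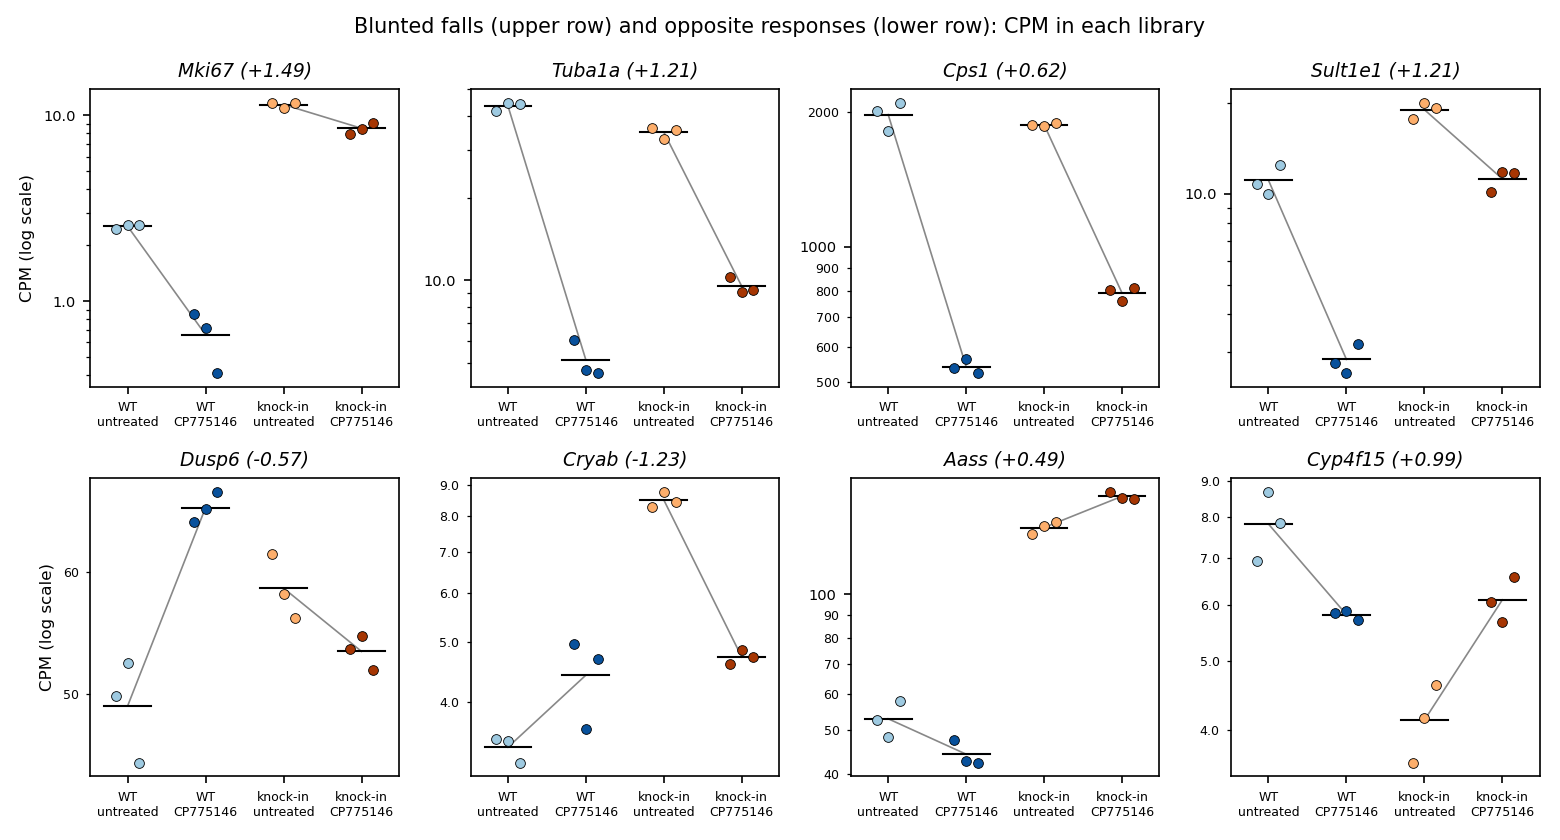
CPM in each library (y axes on a log scale) for 4 falls that were smaller on the log2 scale in the knock-in (upper row) and 4 opposite responses (lower row). Bars mark group means, and each title gives the difference of log2 responses. On the log2 scale Mki67 (1.49) and Tuba1a (1.21) fall further in wild type. The lines of Dusp6 (−0.57) and Aass (0.49) run in opposite directions in the 2 genotypes.

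Of 35 tested nuclear receptor genes 4 were higher and 0 lower by edgeR (4 at an unadjusted p under 0.05 and 0 by DESeq2). Of 32 tested coregulator genes 4 were higher and 0 lower by edgeR (2 at an unadjusted p under 0.05 and 0 by DESeq2). All 8 were higher in the treated knock-in than in the treated wild type. The coregulator count was 8 without treated wild-type replicate 1 or untreated wild-type replicate 3, 7 without treated wild-type replicate 2 and 2 without treated knock-in replicate 1. Rxra, the partner of PPAR-alpha and the receptor that AEG-1 binds, was at 238, 243 and 233 CPM in untreated wild type, 207, 203 and 217 CPM in treated wild type, 232, 227 and 236 CPM in the untreated knock-in and 242, 234 and 244 CPM in the treated knock-in. The untreated libraries of the 2 genotypes lay together and the treated knock-in libraries above the treated wild-type ones. It fell to 0.8802 of its untreated level in wild type and was at 1.04 times it in the knock-in (0.24 ± 0.052, edgeR adjusted p = 0.0039). Its promoter is shown because it holds GGTCANAGG, the core of the direct repeat with a spacer of 1 base that PPAR-RXR pairs are known to bind, in capitals, beginning 74 bases before the start.
Rxra (chr2:27709042-27709341, plus strand): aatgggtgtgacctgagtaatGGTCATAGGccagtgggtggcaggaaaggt
That motif, searched on both strands, was in 2.02% of all promoters and in 1.92% of those found for tested genes. It was in 2 of the 51 (3.92%) found for the PPAR-alpha targets, and a match shows no binding. Ppara itself rose 1.45-fold in wild type and 1.28-fold in the knock-in, and its difference was not called (−0.18 ± 0.064, edgeR adjusted p = 0.09). Nr2f2, the orphan receptor COUP-TFII, was at 0.8199 times its untreated level in wild type and 1.16 times in the knock-in (0.50 ± 0.11, edgeR adjusted p = 0.005). Nr5a2, a receptor for bile acid and cholesterol genes, fell to 0.723 of its untreated level in wild type and was at 0.963 times it in the knock-in (0.41 ± 0.073, edgeR adjusted p = 3.7e-04). Snd1, a protein partner of AEG-1, differed by 0.25 ± 0.053, edgeR adjusted p = 0.0026. Carm1, an arginine methyltransferase, differed by 0.30 ± 0.074, edgeR adjusted p = 0.011, and 18.02% of its exon bases overlap another gene model. Without treated knock-in replicate 1 the edgeR adjusted p for Carm1 was 0.057.

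Among the remaining largest differences, Pde1b, a calcium-dependent phosphodiesterase (chromosome 15, 103503298 to 103530052), was 0.696, 0.451 and 0.6804 CPM untreated and 1.71, 1.16 and 1.301 CPM treated in wild type, 0.0946, 0.367 and 0.369 CPM untreated and 3.27, 3.13 and 2.84 CPM treated in the knock-in. It was lower in the untreated and higher in the treated knock-in, and rose 2.27-fold in wild type and 10.8-fold in the knock-in (2.25 ± 0.41, edgeR adjusted p = 5.4e-04). Gsn, the actin-severing protein gelsolin, was 1.69, 1.43 and 1.54 CPM untreated and 1.77, 1.74 and 1.82 CPM treated in wild type, 3.94, 4.15 and 4.01 CPM untreated and 1.84, 1.66 and 1.69 CPM treated in the knock-in. It was highest in the untreated knock-in, and its treated level was 1.14 times its untreated level in wild type and 0.429 times in the knock-in (−1.42 ± 0.21, edgeR adjusted p = 4.7e-05). Espn, an actin-bundling protein, rose 4.92-fold in wild type and 1.84-fold in the knock-in (−1.42 ± 0.20, edgeR adjusted p = 2.3e-05), and Lamb3, a laminin chain, rose 20.2-fold in wild type and 7.81-fold in the knock-in (−1.37 ± 0.13, edgeR adjusted p = 3.9e-08). Impa2, an inositol monophosphatase, was 5.97, 5.79 and 4.33 CPM untreated and 73.4, 69.9 and 81.6 CPM treated in wild type, 8.45, 6.72 and 7.96 CPM untreated and 41.5, 42.7 and 43.6 CPM treated in the knock-in. It started higher and ended lower in the knock-in, with rises of 13.98-fold in wild type and 5.52-fold in the knock-in (−1.34 ± 0.13, edgeR adjusted p = 3.2e-07). Ptger3, a prostaglandin E receptor, had 3, 1 and 0 counts in untreated and 183, 180 and 192 counts in treated wild type, and 3, 2 and 4 and then 48, 69 and 65 counts in the knock-in. Its difference was −2.64 ± 0.81, edgeR adjusted p = 0.045, and the call was lost in 12 of the 22 alternatives. Serpina5, the protein C inhibitor, was 1.47, 1.503 and 1.72 CPM untreated and 2.17, 2.55 and 1.86 CPM treated in wild type, 1.104, 1.16 and 1.17 CPM untreated and 3.905, 3.803 and 4.14 CPM treated in the knock-in. It rose 1.41-fold in wild type and 3.45-fold in the knock-in (1.29 ± 0.23, edgeR adjusted p = 4.6e-04). Sult1e1, the estrogen sulfotransferase, fell to 0.255 times its untreated level in wild type and 0.591 times in the knock-in (1.21 ± 0.14, edgeR adjusted p = 7.8e-07).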

How the data were processed

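RNA-seq read counts per gene were analysed for all 12 libraries. The deposited values are raw counts. Per the file headers, featureCounts 1.6.2 summed the exons of each gene of Ensembl release 83 over Subread alignments. The submitters' processing notes name featureCounts 1.4.6-p4, FastQC 0.11.2, cutadapt 1.9 and edgeR 3.18.1. Counting was without strand, so overlapping and antisense genes share reads. The 37 mitochondrial genes held 0 counts and were not read as unexpressed. Symbols matched 46488 of 46983 IDs.

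The filter on low counts was filterByExpr, with a minimum count of 10 and a minimum total of 15. All 12 libraries entered 1 robust quasi-likelihood fit of edgeR 4.0.16 (R 4.3.3) after TMM scaling, with a term for each of the 4 groups. The contrast was the knock-in response minus the wild-type response, with Benjamini-Hochberg adjustment over all 15664 tested genes and calls at 0.05. Values after ± are standard errors of the log2 difference, with 3 libraries per group. Folds are ratios of fitted levels, and CPM use TMM-scaled library sizes. The fitting code was tested on simulated data with known changes.

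Named genes were the 15 largest called differences each way with a mean of at least 1 CPM, 8 opposite responses with the smallest adjusted p, up to 4 called members per list (or the 2 most abundant), and a fixed set of receptors and targets. Some of these genes are not reported here. Groups came from 40 pathway and 7 marker lists. The groups, lists and tests were chosen with earlier results of these data known, so list counts describe and support nothing on their own.

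Alternatives were DESeq2 1.42.0, RLE and total-count scaling, limma 3.58.1 voom with sample or group weights, testing all genes with any count, testing those at 5 CPM or more in 3 libraries, a fit without the robust option, replicate blocks, a 2-fold minimum, and leaving out each library. Replicate numbers were not used as pairs: over 18 pairs of same-numbered libraries the correlations of their deviations from the group means were −0.027 to 0.066.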

Additional observations from a re-analysis of the deposited data

Results flagged for a closer look

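The difference of the 2 genotypes' responses was itself tested, and the values below are those called by edgeR's quasi-likelihood test among the opposite and largest differences. In all, 435 responses were higher and 678 lower in the knock-in, and 42 genes had opposite called responses. Values are differences of log2 responses, knock-in minus wild type.

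Lower responses in the knock-in were Ptger3 (−2.64), Cidea (−2.25), Acot1 (−1.82), Cd36 (−1.52), Tmem171 (−1.52), Espn (−1.42), Gsn (−1.42), Fbp2 (−1.39), Lamb3 (−1.37), H2-Q2 (−1.35), Impa2 (−1.34), Serpinb9e (−1.34), Chrna2 (−1.29), Krt7 (−1.27) and Htra3 (−1.27). Higher responses were Pde1b (2.25), Iqgap3 (1.81), Tgtp1 (1.70), Mki67 (1.49), Tmem52 (1.36), Oas3 (1.33), Serpina5 (1.29), Cubn (1.24), Tuba1a (1.21), Sult1e1 (1.21), Cxcl10 (1.18), Marcksl1 (1.15), Fgfbp1 (1.15), Fut10 (1.14) and Snn (1.13). Opposite responses were Cryab (−1.23), Ptpn13 (−0.83), Spns2 (−0.71), Dusp6 (−0.57), Dlc1 (−0.55), Aass (0.49), Fgfrl1 (0.54) and Cyp4f15 (0.99). The call was lost in 12 of 22 alternatives for Ptger3, 8 of 20 for Tmem52, 7 of 21 for Cubn, 6 of 21 for Fut10, 4 of 22 for Serpinb9e, 2 of 21 for Iqgap3 and 1 of 22 for Krt7. With 3 libraries per group no single library was tested as an outlier.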

How the results depend on the processing

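Of 163 named genes with a called difference, 132 kept their direction and call in every alternative that tested them (20 to 22 of 22 alternatives per gene), 31 lost the call in at least 1, and 0 changed sign. DESeq2 called 425 higher and 634 lower, with 991 genes shared. Total-count scaling called 663 higher and 519 lower. Requiring at least 2-fold left 34 higher, 41 lower, 54 blunted, 19 enhanced and 1 opposite. Leaving out 1 library gave 251 to 638 higher, 481 to 882 lower, 566 to 1123 blunted, 141 to 292 enhanced and 25 to 70 opposite. Higher calls moved by over 1.5 times without treated knock-in replicate 1 (251) and untreated knock-in replicates 1 (270) and 2 (271). Opposite calls did so without treated knock-in replicate 1 (25), untreated knock-in replicate 1 (25), treated knock-in replicate 3 (27) and treated wild-type replicate 1 (70). Blunted, lower and enhanced calls moved less, apart from enhanced without treated knock-in replicate 1 (141) and untreated knock-in replicate 1 (145).

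With the replicate block the counts were 436 higher and 694 lower, and 394 and 616 with the block within each genotype. Of 18 same-numbered pairs 9 correlated best with their own number, a hint from the data and not from the design, since the labels do not say what the numbers stand for. Uncalled genes changed sign without some library: Cyp7a1 ranged over −0.088 to 1.55, Dcn −0.21 to 0.081, Ehhadh −0.032 to 0.046, Fgf21 −0.19 to 0.11 and Mtdh −0.012 to 0.062. With total-count scaling Fgf21 was 0.0100. The cause was not tested. Depth limits genes near 3 counts (0.086 to 0.111 CPM), such as untreated Ptger3.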

Other observations

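Drug and redox genes split. Of 25 tested NRF2 targets 5 were higher and 4 lower in the knock-in response, and 2 lower without treated knock-in replicate 3. Slc7a11, the cystine importer, was 22.9, 24.7 and 21.6 CPM untreated and 16.8, 20.6 and 16.5 CPM treated in wild type, 38.9, 45.1 and 44.7 CPM untreated and 57.9, 61.7 and 53.3 CPM treated in the knock-in. It fell to 0.781 of its untreated level in wild type and rose 1.34-fold in the knock-in (0.78 ± 0.12, edgeR adjusted p = 3.3e-04). G6pdx, the entry enzyme of the pentose phosphate pathway, had a blunted rise of 2.02-fold in wild type and 1.48-fold in the knock-in (−0.45 ± 0.083, edgeR adjusted p = 6.0e-04). Gstm3, a glutathione transferase, was at 0.989 times its untreated level in wild type and 1.27 times in the knock-in, where the rise was called (0.36 ± 0.070, edgeR adjusted p = 0.0018). Of 28 CAR and PXR targets 5 were higher and 3 lower, and 5 lower without untreated wild-type replicate 3. Cyp2a5, the coumarin hydroxylase, was 826, 837 and 982 CPM untreated and 348, 405 and 376 CPM treated in wild type, 623, 659 and 683 CPM untreated and 483, 514 and 495 CPM treated in the knock-in. It was lower in the untreated and higher in the treated knock-in, and fell to 0.427 times its untreated level in wild type and 0.759 times in the knock-in (0.83 ± 0.094, edgeR adjusted p = 8.1e-05). Of 30 sulfotransferase, glucuronosyltransferase and glutathione transferase genes 6 were higher and 4 lower, the latter 2 without any of 5 single libraries (treated knock-in replicates 1 and 3, untreated knock-in replicate 2, treated wild-type replicate 3, untreated wild-type replicate 1).

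Retinoid genes were lower in 6 of 19 tested and higher in 0 by edgeR (0 at an unadjusted p under 0.05 and 0 by DESeq2). Aldh1a1, which makes retinoic acid, was 774, 781 and 908 CPM untreated and 2199.7, 2373 and 2287 CPM treated in wild type, 2191, 2183 and 2211 CPM untreated and 3294, 3246 and 3391 CPM treated in the knock-in. It was higher in the knock-in in both states, and rose 2.78-fold in wild type and 1.51-fold in the knock-in (−0.88 ± 0.065, edgeR adjusted p = 1.4e-09), with a near-identical copy, Aldh1a7, at 2.92-fold in wild type and 1.84-fold in the knock-in (−0.66 ± 0.059, edgeR adjusted p = 1.0e-08). Dhrs4, a retinol dehydrogenase, rose 3.69-fold in wild type and 2.77-fold in the knock-in (−0.41 ± 0.066, edgeR adjusted p = 9.7e-05). Cholesterol synthesis was lower in 6 of 25 and higher in 1, with Msmo1 rising 1.52-fold in wild type and 1.22-fold in the knock-in (−0.31 ± 0.055, edgeR adjusted p = 3.3e-04). Of 24 bile acid genes 3 were higher and 0 lower by edgeR (4 at an unadjusted p under 0.05 and 1 by DESeq2), and 6 were higher without untreated wild-type replicate 2. Of 60 cytosolic ribosomal protein genes 3 were lower and 0 higher by edgeR (2 at an unadjusted p under 0.05 and 0 by DESeq2). The lower count is near the 4.33% of all genes. Without untreated wild-type replicate 3 there were 13 lower and 4 higher. Of 54 respiratory chain genes 1 was lower, and 7 without the same library. Of 36 stress-response genes 5 were lower and 1 higher, and the lower count was 2 or 3 without any of 6 single libraries (treated knock-in replicates 1 and 3, untreated knock-in replicates 1 and 2, treated wild-type replicate 3, untreated wild-type replicate 1). Hspa5, the main chaperone of the endoplasmic reticulum, rose 1.28-fold in wild type and 1.09-fold in the knock-in (−0.23 ± 0.050, edgeR adjusted p = 0.0036).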
